A study of Mus musculus with 8 samples.

Results

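The 39 imprinted genes described here were taken by symbol from a gene count table of 43346 rows, and 37 of them had a row. By their usual expressed allele in the mouse, 21 of the 39 are paternally and 18 maternally expressed. The cells were MC3T3, pre-osteoblasts of a line established from C57BL/6 mouse calvaria, and were cultured for 7 days with ascorbic acid (100 ug/mL) and beta-glycerophosphate (10 mM) to mineralize. In the 4 LLC_CM libraries a share of 25% of the medium had been conditioned for 48 hours without serum by LLC1, the Lewis lung carcinoma line of mice. The labels leave the abbreviation NCM unexplained, and these 4 libraries are taken as the vehicle group by elimination. All 8 samples are of 1 cell line with no genetic change named in the labels, and the comparison asks what products released by the carcinoma cells do to osteoblast RNA.

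Imprinted genes are expressed mainly from the chromosome inherited from one parent. They lie in domains controlled by regions whose DNA methylation differs between the parental copies, and a domain often holds paternally and maternally expressed genes together with a long noncoding RNA. Many act on fetal growth: several paternally expressed genes promote it and several maternally expressed genes restrain it. Imprinting of some members is known mainly from placenta or brain, and such genes can be expressed from both copies elsewhere. The counts do not separate the parental copies, so every value below is the total from both.

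Library totals ran from 27264212 to 35573953 counts. The osteoblast markers Runx2, Sp7, Alpl and Col1a1 were present in every library, with Runx2 at 237 ± 14.1 CPM in LLC_CM and 470 ± 31.2 CPM in NCM (SD, n = 4; CPM is counts per 1000000 of the TMM-scaled library total). All 8 osteoblast markers on the list passed the test, 7 lower and 1 higher in LLC_CM. Of all genes tested 36.9% passed, and the shares of the marker lists are to be read beside that. Summed CPM of the epithelial markers lay between 0 and 0.161 in LLC_CM and between 0.0682 and 0.177 in NCM, with Epcam, Krt8 and Krt18 at 0 and 0 of 6 tested. Summed macrophage markers were 18.7 to 32.3 CPM against 11.6 to 17.4, with 2 of the 4 tested higher and Tyrobp at 0. The 2 were Fcer1g and Lyz2, and Lyz2 alone had 15.1 to 28.7 CPM in LLC_CM and 8.33 to 14.5 CPM in NCM. Cd68 and Csf1r, also tested, had log2 fold changes of 0.12 ± 0.22 and -0.48 ± 0.28 (SE, adjusted p = 0.71 and 0.20 in edgeR). Ptprc and Adgre1 had 4 and 3 reads over NCM and none over LLC_CM. Neuron markers summed to 2.74 to 3.89 CPM against 43.7 to 68.1, with 1 of the 2 tested lower and Snap25 and Rbfox3 at 0. That gene was Tubb3, which alone had 42.0 to 67.1 CPM in NCM. Map2, the other one tested, had a log2 fold change of 0.46 ± 0.27 (SE, adjusted p = 0.20 in edgeR). Trophoblast markers summed to 0.333 to 0.568 CPM in LLC_CM and 0 to 0.205 CPM in NCM, with the only 1 tested, Plac1, higher and the other 4 at 0. Adipocyte markers summed to 17.5 to 24.7 CPM in LLC_CM and 8.12 to 10.2 CPM in NCM. Of these 5 markers 2 were tested and both were higher, and none was at 0. Skeletal muscle markers summed to 4.25 to 6.32 CPM in LLC_CM and 4.73 to 6.30 CPM in NCM, with 1 of the 3 tested higher and Myog at 0. The part of these shifts in the values below was not tested, and in bulk RNA fewer cells of a type and less RNA per cell cannot be told apart.

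Start-site windows of 6 members are shown because they stand for the contrast between imprinted domains in these cells: Mest, Airn and Plagl1 were expressed, and Peg3, Snurf and Meg3 had no read. The windows are from RefSeq (GRCm38.p6), 250 bases before to 50 after an annotated start, 5′ to 3′ on the gene's strand. RefSeq windows were found for 30 members. Where a gene has several starts, one of its windows with the most CpG sites is printed. Capitals mark TGCCGC, the letters bound by ZFP57, or its reverse complement GCGGCA. They also mark GGGGCCCC, a motif bound by Plagl1, in Peg3. Both strands were searched, also for GCCATNTT, a YY1 motif, which is in none of these 6 windows.
Mest, chr6:30737800-30738099, plus strand: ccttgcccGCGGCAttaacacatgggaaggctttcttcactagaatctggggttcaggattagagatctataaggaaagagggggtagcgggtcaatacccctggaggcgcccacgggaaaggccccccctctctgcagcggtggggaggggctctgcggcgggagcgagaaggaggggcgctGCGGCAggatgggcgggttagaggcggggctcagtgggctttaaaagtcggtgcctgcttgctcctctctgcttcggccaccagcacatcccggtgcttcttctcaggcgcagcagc
Airn, chr17:12741061-12741360, plus strand: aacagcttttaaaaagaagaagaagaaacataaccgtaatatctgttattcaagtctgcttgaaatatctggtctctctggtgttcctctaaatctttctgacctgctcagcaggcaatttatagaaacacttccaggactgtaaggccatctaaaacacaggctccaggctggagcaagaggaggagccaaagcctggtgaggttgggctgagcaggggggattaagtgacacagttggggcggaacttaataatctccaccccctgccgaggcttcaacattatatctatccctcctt
Plagl1, chr10:13090582-13090881, plus strand: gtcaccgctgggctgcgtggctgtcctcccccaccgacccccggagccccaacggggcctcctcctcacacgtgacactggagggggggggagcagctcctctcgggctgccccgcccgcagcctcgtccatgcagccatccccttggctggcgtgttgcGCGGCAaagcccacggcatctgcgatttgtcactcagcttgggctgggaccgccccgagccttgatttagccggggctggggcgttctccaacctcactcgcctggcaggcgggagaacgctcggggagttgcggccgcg
Peg3, chr7:6730370-6730669, minus strand: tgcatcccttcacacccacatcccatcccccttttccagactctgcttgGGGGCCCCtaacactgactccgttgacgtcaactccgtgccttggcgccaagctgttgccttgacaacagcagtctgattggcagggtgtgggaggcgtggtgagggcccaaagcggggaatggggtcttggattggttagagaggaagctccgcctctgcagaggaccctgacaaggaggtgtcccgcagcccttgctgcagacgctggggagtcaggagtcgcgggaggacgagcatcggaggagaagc
Snurf, chr7:60005150-60005449, minus strand: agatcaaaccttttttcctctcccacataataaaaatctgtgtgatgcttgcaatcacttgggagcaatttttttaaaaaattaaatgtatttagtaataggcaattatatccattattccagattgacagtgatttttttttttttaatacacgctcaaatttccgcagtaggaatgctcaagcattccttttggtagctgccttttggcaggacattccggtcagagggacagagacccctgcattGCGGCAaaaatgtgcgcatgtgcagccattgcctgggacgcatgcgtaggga
Meg3, chr12:109540746-109541045, plus strand: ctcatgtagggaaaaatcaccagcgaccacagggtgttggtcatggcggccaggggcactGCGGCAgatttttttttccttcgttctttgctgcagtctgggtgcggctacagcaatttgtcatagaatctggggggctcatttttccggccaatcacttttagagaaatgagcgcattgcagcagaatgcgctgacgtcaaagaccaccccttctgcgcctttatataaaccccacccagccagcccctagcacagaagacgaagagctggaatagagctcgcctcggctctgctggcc

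The printed Mest window holds the ZFP57 letters at 2 places, those of Plagl1, Snurf and Meg3 at 1 each, and those of Airn and Peg3 at none. Mest and Meg3 each have a start window elsewhere that is not printed, with 8 and 1 CpG sites, and neither holds these letters. A further Mest window, from 30737803 on, overlaps the printed one and holds them at 2 places. Of the 45 member windows read, without Impact, 11 (24.4%) hold these letters, against 11.6% of the 32851 windows of 300 bases in the table. The Snurf window is also 1 of the 4 of Snrpn, and 2 of the 3 Mest windows overlap, so the windows are not independent. CpG sites numbered 26 in the Plagl1 window, 17 in Mest, 13 in Peg3 and in Meg3, 7 in Snurf and 3 in Airn. The median was 7 over all windows and 13 over the member windows. The ZFP57 letters themselves hold a CpG, and the part of CpG content in their share was not tested. Windows with and without the letters thus occurred among both the expressed and the unread genes. A RefSeq start need not be the start used in these cells, and a match of letters is a description of the window.

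Several imprinted domains were well expressed in both groups, and others had few reads or none. Of the 37 genes with a row, 13 (35.1%) had no read in any of the 8 libraries, 7 had reads but too few for the low-count filter, and 17 were tested. Of all 43346 rows of the table, which include genes that are not protein-coding, 47.1% had no read. Among protein-coding rows it was 40.6% of 32 member rows against 29.7% of 22032, where the member rows count Snrpn under 2 identifiers beside the overlapping Snurf. The unread genes numbered 9 of 20 paternally expressed and 4 of 17 maternally expressed members with a row. A count of 0 over all 8 libraries allows at most 0.0122 CPM at 3 counts, which covers counting error only.

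The rows of the Peg3 domain had no read. Peg3, a zinc finger gene with roles in growth and maternal behaviour, Usp29, a ubiquitin protease gene read from the other strand of the same start region, and the zinc finger gene Zim1 had 0 counts in all libraries. None of the 6 rows of the table between 6675443 and 6963769 on chromosome 7 (mm10) had a read. The Usp29 row covers 2610 bases from 6961160 on, where GENCODE M21 gives the gene 18078 exonic bases. Its 0 therefore speaks for a part of that gene.

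In the domain of Snrpn and Ube3a the paternally expressed genes were mostly unread while Ube3a was abundant. Ndn and Magel2, both of the MAGE protein family, Peg12, the small splicing gene Snrpn and the upstream reading frame Snurf had no read. Mkrn3, a ring finger gene that restrains puberty, was the exception among them, with 17, 22, 51 and 28 reads in LLC_CM and 28, 18, 19 and 21 in NCM. Its mean was 0.906 ± 0.371 CPM in LLC_CM and 0.731 ± 0.150 CPM in NCM (SD, n = 4), and the groups overlapped. The table lists Snrpn under 2 identifiers, and in the annotation all 216 exonic bases of Snurf are shared with Snrpn. Reads of shared bases may have been left unassigned, so a 0 there is weaker than that of Ndn, Magel2 and Peg12, which share no exon with another annotated gene. The longer Snrpn row shares 589 (11.3%) of its 5216 exonic bases with the other Snrpn identifier, so for that row the limit covers a part.

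Dlk1, a membrane ligand that holds back adipocyte and osteoblast maturation, and Meg3, the maternally expressed noncoding RNA of the same domain, had no read. The noncoding host genes further along the domain had a few. Rian, a host of small nucleolar RNAs, had 1, 7, 7 and 3 reads in LLC_CM and 2, 0, 0 and 0 in NCM. Scaled to library size this was 8.31 times as many (95% interval 1.99 to 73.9, exact, counting error only). Mirg, a microRNA host, had 1, 0, 5 and 1 reads against 0, 1, 0 and 0, or 6.47 times as many (interval 0.831 to 291). Those intervals hold no spread between libraries, and without the low-count filter neither gene passed in edgeR (adjusted p = 0.057 for Rian and 0.27 for Mirg, with 24.5% of 22913 genes called).

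The rows of both protein-coding neighbours with reads in that domain were higher in LLC_CM. Rtl1, a retrotransposon-derived gene of placenta, had 6, 12, 11 and 21 reads in LLC_CM and none in NCM, at least 15.4-fold higher against 3 counts over the NCM group. It fell below the low-count filter, and without the filter its adjusted p in edgeR was 1e-05. In the annotation Rtl1 overlaps several microRNA genes on the opposite strand. The library kit does not mark strand, so RNA from that strand could have been counted for Rtl1. Which strand these reads came from was not tested. Dio3, the deiodinase that inactivates thyroid hormone, had 2.16, 2.66, 2.99 and 2.12 CPM in LLC_CM and 1.19, 0.921, 0.847 and 1.04 CPM in NCM. Its groups did not overlap, and it rose by 1.31 ± 0.21 on the log2 scale (SE, adjusted p = 0.00013). From Dlk1 to Dio3, 5 of 97 rows had any read.

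Other members at or near 0 were spread over several domains. Phlda2, which limits placental growth, the cation transporter Slc22a3 and the neuronal membrane protein Nnat had no read. Cdkn1c, the cyclin-dependent kinase inhibitor p57, had 10 reads in the 4 LLC_CM libraries and 16 in the 4 of NCM, or 0.577 times as many (interval 0.234 to 1.35). Asb4, an ankyrin repeat gene, had 22 against 6, or 3.39 times as many (interval 1.33 to 10.2), and an adjusted p of 0.16 in edgeR without the filter. Slc22a18, Ppp1r9a and Zdbf2 had at most 3 reads in either group. Peg13 and Nesp had no row of that name and are not analysed on their own. Nesp belongs to the Gnas domain, and its reads may be part of the Gnas row.

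**Figure D1:**
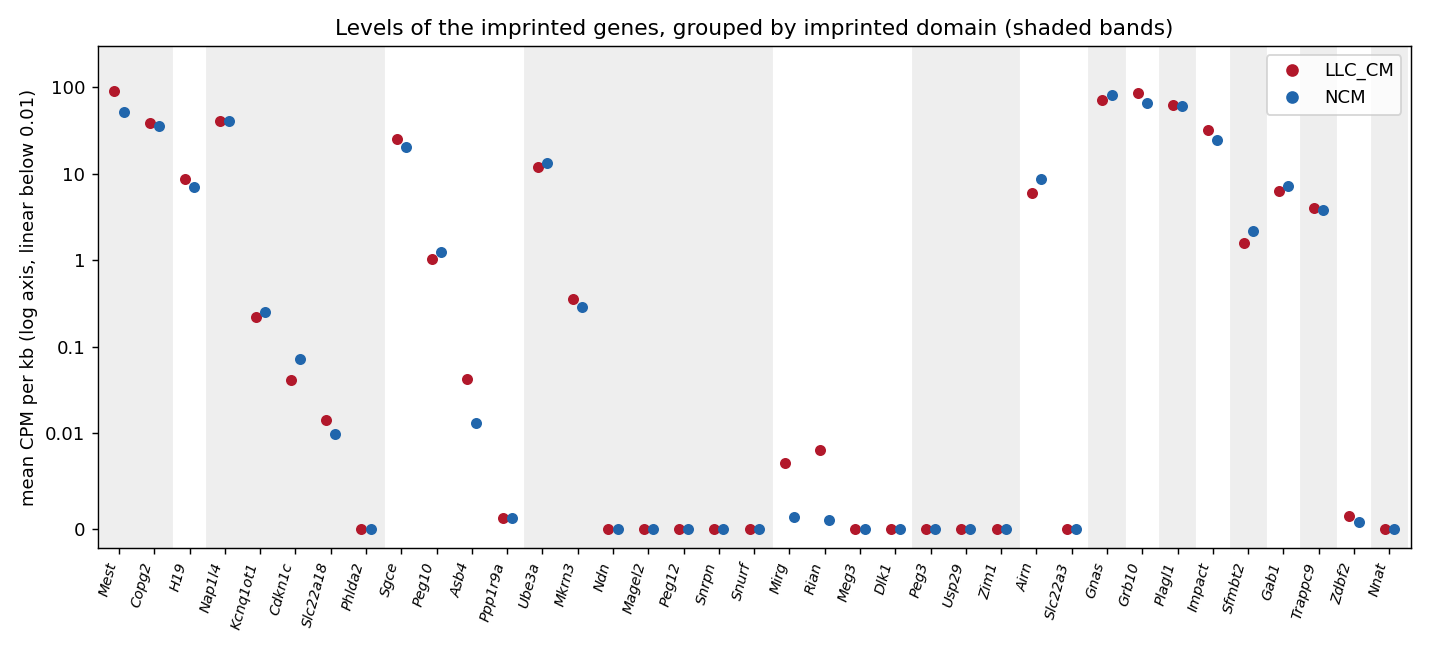
Mean CPM per kilobase of gene length (vertical axis, logarithmic above 0.01 and linear below) of the 37 imprinted genes with a row in LLC_CM (red) and NCM (blue), 4 libraries each, with alternating shading for imprinted domains. The genes of the Peg3 domain sit at 0 in both groups, while Gnas, Grb10, Plagl1 and Mest exceed 50 in both.

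Per kilobase of gene length, the most abundant members in NCM were Gnas at 80.3, Grb10 at 66.3, Plagl1 at 59.8 and Mest at 51.6 CPM per kb. These levels placed them between the 93.5th and 95.9th percentile of all genes tested. Nap1l4 (40.3) and Copg2 (35.8) followed, then Impact (24.3), Sgce (20.2) and Ube3a (13.3 CPM per kb). Airn (8.63), Gab1 (7.28), H19 (6.96), Trappc9 (3.79), Sfmbt2 (2.16) and Peg10 (1.25) were lower, and Mkrn3 (0.287) and Kcnq1ot1 (0.251) were lowest. Kcnq1ot1 is listed as a single stretch of 84395 bases, which divides its reads over a long transcript. In LLC_CM Mest stood highest at 91.5 CPM per kb, above Grb10 at 85.1 and Gnas at 71.2.

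Of the 17 tested members, 4 rose and 2 fell in LLC_CM in edgeR's quasi-likelihood test at a Benjamini-Hochberg adjusted p under 0.05. That is 35.3% of them, where 36.9% of all 14991 genes tested were called, 18.8% higher and 18.1% lower. The share is near the background, and nothing particular to the members is read from it. DESeq2 called 5 members lower, and edgeR called 4 lower without NCM replicate 3. Their median log2 fold change was 0.07, against 0.01 over all genes tested, and the range ran from -0.52 to 0.83. Paternally expressed genes held 3 of the 4 that rose and both that fell, out of 10 tested. Among 7 tested maternally expressed genes Grb10 rose and none fell. Without NCM replicate 2 the count that rose was 2, and without LLC_CM replicate 3 or NCM replicate 3 the count that fell was 1. Of these 7 genes 2, H19 and Grb10, were classed here as not limited to some tissues in their imprinting. The median log2 fold change was -0.06 for the paternally and 0.07 for the maternally expressed genes, and 0.19 and 0.34 without the members whose imprinting is tissue-limited, which leaves 8 and 2 genes. The list of genes was chosen with earlier results of these data known, and the difference between the alleles was not tested.

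**Figure D2:**
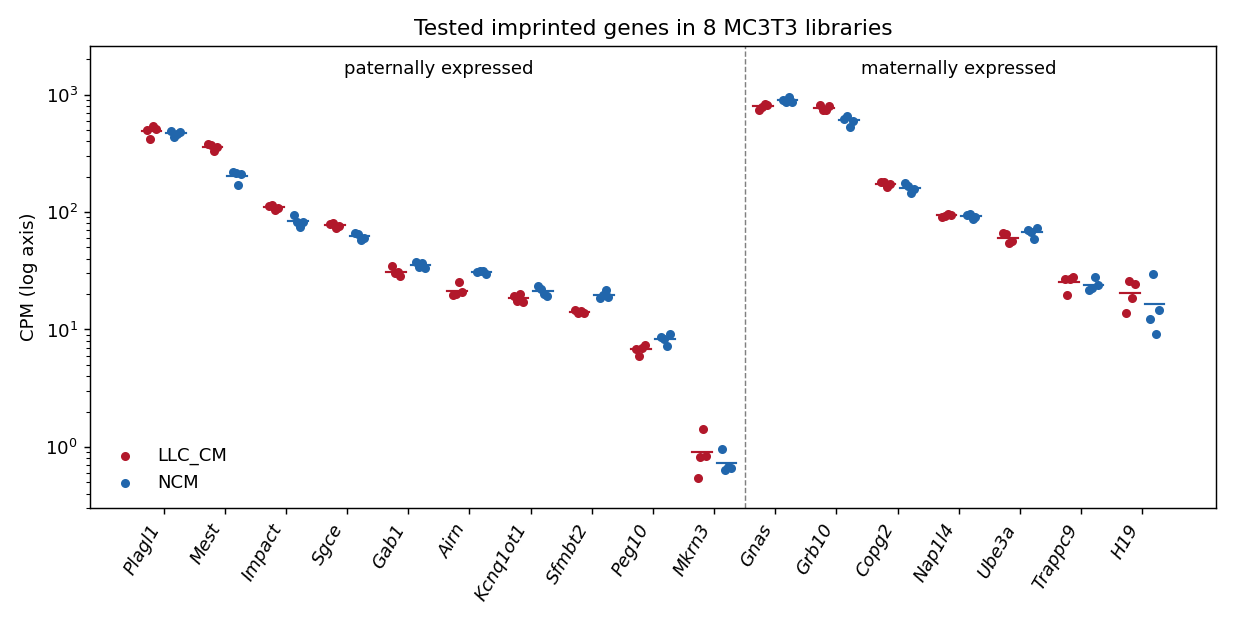
CPM (logarithmic vertical axis) of the 17 tested imprinted genes in each library, with LLC_CM in red, NCM in blue and short lines at the group means. The 4 LLC_CM points of Mest, between 334 and 378 CPM, all lie above its NCM points, between 169 and 220 CPM.

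Mest had the largest log2 fold change among the 17 tested members. It encodes an alpha/beta hydrolase fold protein of mesodermal tissues and is paternally expressed (ENSMUSG00000051855, chromosome 6, 30723547 to 30748455, mm10). The libraries read 378, 372, 334 and 357 CPM in LLC_CM and 220, 215, 169 and 210 CPM in NCM. Every LLC_CM library was above every NCM library. Mest rose 1.77-fold, by 0.83 ± 0.08 on the log2 scale (SE, adjusted p = 1e-06). Its window above holds 2 copies of the ZFP57 letters.

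Copg2, a coat protein gene that meets Mest end to end on the opposite strand, did not pass the test. Its values were 179, 180, 163 and 172 CPM in LLC_CM and 176, 165, 145 and 156 CPM in NCM, and the groups overlapped. The log2 fold change was 0.11 ± 0.06 (SE, adjusted p = 0.20). In the annotation the genes share 912 exonic bases, 23.1% of Mest and 17.8% of Copg2. The library kit does not mark strand, so reads in that stretch cannot be told apart.

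Mir335, a microRNA gene within Mest, had 32 reads over LLC_CM and 12 over NCM at its hairpin and was below the filter. Poly(A)-selected libraries do not measure mature microRNAs, so these reads come from longer RNA. The mature sequences are given for identification, with the seed in capitals (bases 2 to 8).
mmu-miR-335-5p, chr6:30741314-30741336: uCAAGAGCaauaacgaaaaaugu
mmu-miR-335-3p, chr6:30741354-30741375: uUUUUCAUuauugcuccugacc

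Grb10, Impact and Sgce rose by smaller amounts. Grb10, a maternally expressed adaptor that dampens insulin and IGF receptor signalling (chromosome 11, 11930508 to 12038683), had 812, 742, 741 and 797 CPM in LLC_CM against 626, 658, 527 and 601 CPM in NCM. It was higher in all 4 LLC_CM libraries and rose by 0.36 ± 0.08 on the log2 scale, 1.28-fold (SE, adjusted p = 0.0016).

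Impact, a paternally expressed restraint on the amino acid sensor kinase Gcn2, had 113, 114, 104 and 108 CPM in LLC_CM and 94.7, 82.4, 74.7 and 82.3 CPM in NCM. The groups did not overlap, and the rise was 1.31-fold, by 0.39 ± 0.07 on the log2 scale (SE, adjusted p = 0.00035). Sgce, the epsilon sarcoglycan of the cell membrane (chromosome 6, 4674350 to 4747204), had 79.2, 81.4, 72.9 and 76.2 CPM against 66.9, 64.5, 57.8 and 60.2 CPM. It rose 1.24-fold, by 0.31 ± 0.06 (SE, adjusted p = 0.0011), with no overlap between groups.

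Peg10, a retrotransposon-derived gene needed for placenta that starts next to Sgce on the other strand, went the other way in value. It had 6.76, 5.99, 7.02 and 7.44 CPM in LLC_CM and 8.69, 8.29, 7.24 and 9.08 CPM in NCM, with 1 NCM library inside the LLC_CM range. The log2 fold change was -0.29 ± 0.12 (SE) and missed the threshold (adjusted p = 0.063). It passed without NCM replicate 3, at -0.36 (adjusted p = 0.032), and with DESeq2, at -0.30 (adjusted p = 0.043), and over all alternatives the adjusted p ran from 0.032 to 0.15.

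Airn and Sfmbt2 fell. Airn, the paternally expressed antisense RNA that silences the paternal Igf2r copy in many tissues (chromosome 17, 12741311 to 12860122), had 19.8, 19.9, 25.2 and 20.9 CPM in LLC_CM and 30.9, 31.3, 31.6 and 29.8 CPM in NCM. All LLC_CM libraries were below all NCM libraries. It fell by 0.52 ± 0.08 on the log2 scale, 1.44-fold lower (SE, adjusted p = 0.00015).

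Igf2r, the maternally expressed receptor that clears IGF2 and carries lysosomal enzymes, fell as well. It had 341, 268, 350 and 326 CPM in LLC_CM and 418, 470, 463 and 411 CPM in NCM, with a log2 fold change of -0.45 ± 0.08 (SE, adjusted p = 0.0005). Airn starts inside Igf2r and runs against it. No exon of one overlaps an exon of the other in the annotation, but without strand marking an unspliced Igf2r read over an Airn exon could be counted for Airn.

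Sfmbt2, a Polycomb-group gene whose imprinting is known from extraembryonic tissue (chromosome 2, 10370510 to 10595253), had 14.7, 13.8, 14.4 and 13.9 CPM in LLC_CM and 18.6, 19.9, 21.6 and 18.9 CPM in NCM. The groups did not overlap, and it fell by 0.47 ± 0.08, 1.39-fold lower (SE, adjusted p = 0.0003).

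**Figure D3:**
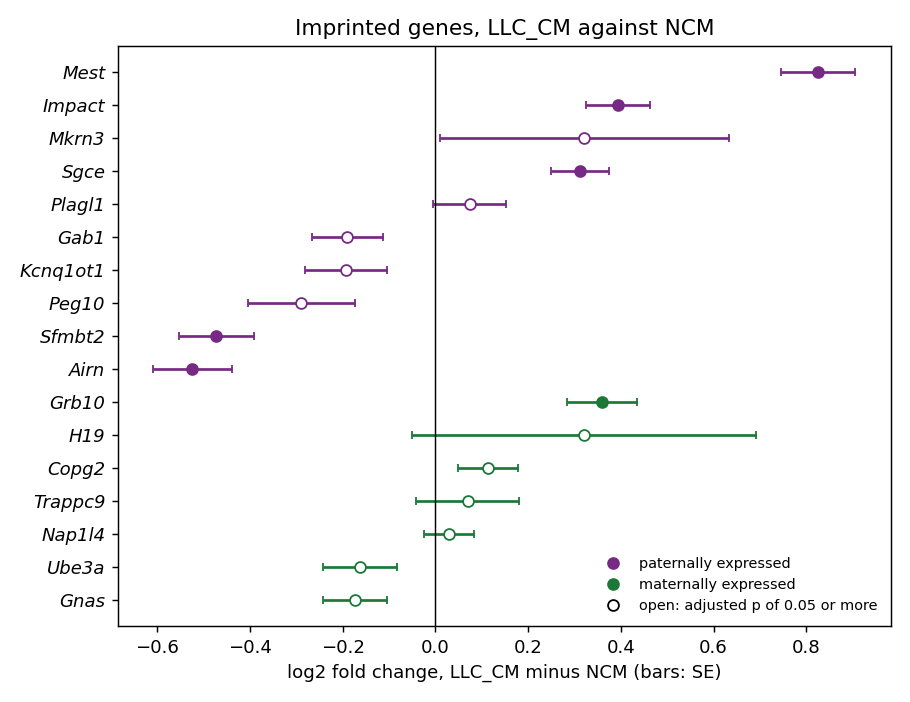
Log2 fold change (LLC_CM minus NCM, horizontal axis) with its standard error for the 17 tested imprinted genes, paternally expressed in purple and maternally expressed in green, with filled points past an adjusted p of 0.05. Mest at 0.83 lies farthest right and Airn at -0.52 farthest left, and 11 genes are open.

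Members of 2 signalling pathways had small negative values. Gnas encodes the stimulatory G protein alpha subunit that couples the parathyroid hormone receptor to cyclic AMP. Its row sums transcripts from several start sites with different imprinting. It had 742, 783, 838 and 821 CPM in LLC_CM and 904, 862, 964 and 862 CPM in NCM. The groups did not overlap, with the highest LLC_CM library at 838 and the lowest NCM library at 862 CPM, yet the log2 fold change of -0.17 ± 0.07 (SE) missed the threshold in edgeR (adjusted p = 0.063). It passed with DESeq2 (adjusted p = 0.015), with limma-voom (0.046) and without LLC_CM replicate 3 (0.042), and over all alternatives the adjusted p ran from 0.015 to 0.16.

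Gab1, a docking protein of growth factor receptors, had 34.5, 30.3, 30.7 and 28.5 CPM in LLC_CM and 37.7, 33.8, 36.7 and 33.2 CPM in NCM, with overlap. Its log2 fold change was -0.19 ± 0.08 (SE, adjusted p = 0.064). It passed without LLC_CM replicate 1 (adjusted p = 0.023) or NCM replicate 4 (0.046), with the replicate number as a block (0.045), with an odd or even term (0.046) and in DESeq2 (0.048), and over all alternatives the adjusted p ran from 0.023 to 0.15. Ube3a, the ubiquitin ligase lost in Angelman syndrome, had 66.4, 64.6, 54.7 and 56.4 CPM in LLC_CM and 70.4, 68.0, 59.3 and 73.1 CPM in NCM. The groups overlapped, and the log2 fold change was -0.16 ± 0.08 (SE, adjusted p = 0.13). It passed without NCM replicate 3 (-0.23, adjusted p = 0.027, with a range of 0.027 to 0.25 over all alternatives). Groups not overlapping numbered 7 of the 17 members, Gnas included, against 36.3% of all genes tested.

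The other tested members did not pass. Kcnq1ot1, the paternally expressed RNA that silences the Kcnq1 domain, had 19.4, 17.5, 20.0 and 17.1 CPM in LLC_CM and 23.5, 22.0, 19.9 and 19.4 CPM in NCM, with a log2 fold change of -0.19 ± 0.09 (SE, adjusted p = 0.11). Plagl1, the zinc finger factor known to regulate other imprinted genes, had 495, 418, 541 and 513 CPM against 488, 439, 461 and 483 CPM. Its NCM libraries lay within the LLC_CM range, and the log2 fold change was 0.07 ± 0.08 (SE, adjusted p = 0.50). Nap1l4 (0.03 ± 0.05) and Trappc9 (0.07 ± 0.11), a histone chaperone and a trafficking gene, stood near 0, and Mkrn3 at 0.32 ± 0.31 on the log2 scale rested on 17 to 51 reads a library.

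H19 varied more between libraries than between groups. This maternally expressed noncoding RNA (chromosome 7, 142575529 to 142578143) had 13.8, 25.7, 18.6 and 24.4 CPM in LLC_CM and 12.2, 29.9, 9.21 and 14.7 CPM in NCM. NCM replicate 2 held the highest value of all 8 libraries, and of the other 3 NCM values 2 were below the lowest in LLC_CM. The log2 fold change was 0.32 ± 0.37 (SE, adjusted p = 0.55). Without NCM replicate 2 it was 0.76 (adjusted p = 0.018), the one alternative in which H19 passed, and over all alternatives the adjusted p ran from 0.018 to 0.85.

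Igf2, the paternally expressed growth factor that shares enhancers with H19, had 99.1, 99.8, 113 and 189 CPM in LLC_CM and 114, 135, 62.1 and 111 CPM in NCM. LLC_CM replicate 4 stood apart, and the log2 fold change was 0.25 ± 0.31 (SE, adjusted p = 0.58). In the annotation Igf2 shares 3596 exonic bases, 62.8% of its own, with Gm49394 on the same strand. Reads of those bases may have been left unassigned. In NCM the libraries highest and lowest for H19, replicates 2 and 3, were also highest and lowest for Igf2. In LLC_CM replicate 1 was lowest for both genes, while the highest H19 was in replicate 2 and the highest Igf2 in replicate 4.

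Mir675, a microRNA gene inside H19, had 20, 45, 49 and 39 reads in LLC_CM and 16, 46, 27 and 28 in NCM, with a log2 fold change of 0.27 ± 0.34 (SE, adjusted p = 0.58). It overlaps H19 by 84 bases, so part of the H19 transcript may have been counted there or left out. The mature sequences have their seeds in capitals.
mmu-miR-675-5p, chr7:142577112-142577133: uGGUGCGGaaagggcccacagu
mmu-miR-675-3p, chr7:142577078-142577099: cUGUAUGCccuaaccgcucagu

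**Figure D4:**
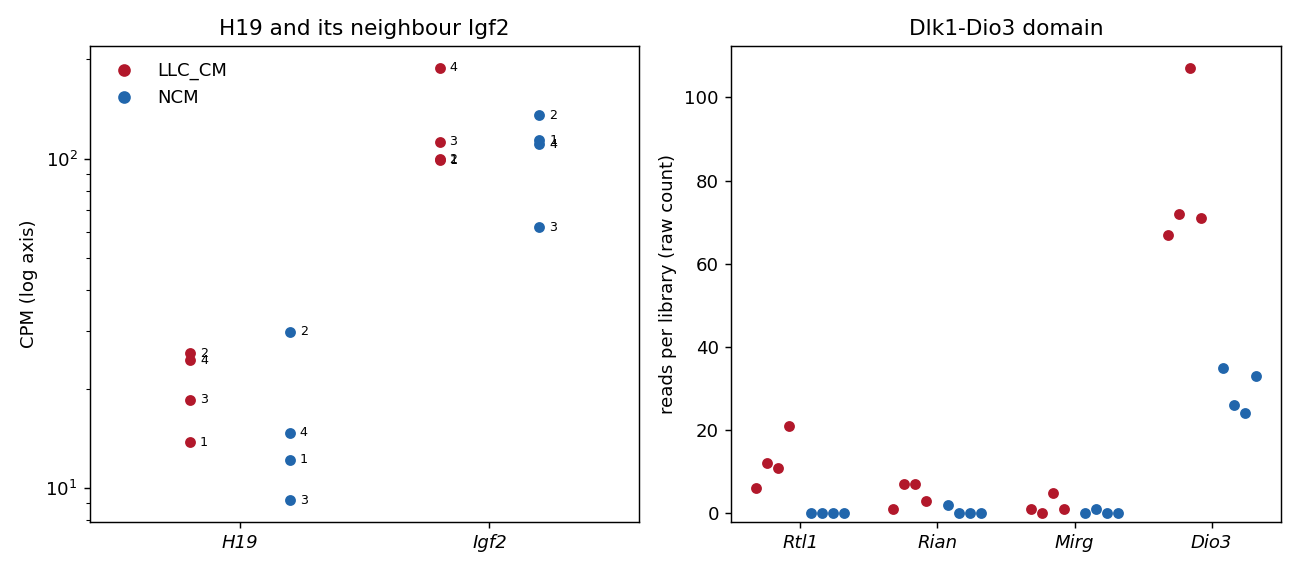
Left, CPM of H19 and Igf2 (logarithmic axis) in LLC_CM (red) and NCM (blue), with replicate numbers beside the points. Right, raw reads per library of Rtl1, Rian, Mirg and Dio3; Rtl1 has 6 to 21 reads in LLC_CM and none in NCM, and H19 is highest in NCM replicate 2 at 29.9 CPM.

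Genes that write, read or remove DNA methylation and keep imprints moved in both directions. Of 24 tested regulators 9 fell and 3 rose (50.0%, against 36.9% of all genes), with a median log2 fold change of -0.12. Tet1, which oxidizes methylated cytosine, had 21.0, 20.0, 18.4 and 17.5 CPM in LLC_CM and 39.9, 40.6, 40.1 and 36.0 CPM in NCM. All LLC_CM libraries were lower, and Tet1 fell by 1.02 ± 0.08 on the log2 scale (SE, adjusted p = 7e-08).

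The de novo methyltransferase genes Dnmt3a and Dnmt3b fell by 0.74 ± 0.08 and 0.49 ± 0.12 on the log2 scale (adjusted p = 3e-06 and 0.0041). Arid4a, a gene on chromosome 12 for a chromatin factor that acts on the Snrpn domain, fell by 0.47 ± 0.08 (adjusted p = 0.00016). Dnmt1, which copies methylation at replication, had a log2 fold change of 0.10 ± 0.08 (adjusted p = 0.36), while its partner Uhrf1 rose by 0.44 ± 0.11 (adjusted p = 0.0083). Zfp57, whose protein holds imprints at the TGCCGC letters, was present at 6.32 ± 1.04 CPM in LLC_CM and 4.87 ± 0.465 CPM in NCM (SD, n = 4) and missed the threshold in edgeR (log2 fold change 0.38 ± 0.14, adjusted p = 0.05 when rounded). Its co-repressor gene Trim28 had a log2 fold change of -0.01 ± 0.07 (adjusted p = 0.96).

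Among 25 tested imprinted genes outside the 39, 8 rose and 6 fell (56.0%, against 36.9% of all genes). These genes were not classed by tissue-limited imprinting, and whether any of them is imprinted in these cells was not tested. Dcn, the collagen-binding proteoglycan decorin, had 1693 ± 110 CPM in LLC_CM and 813 ± 54.3 CPM in NCM (SD, n = 4) and rose by 1.06 ± 0.08 (SE, adjusted p = 3.8e-08). Pon3, a paraoxonase gene in the Peg10 domain, rose by 0.88 ± 0.08 (adjusted p = 3.1e-07). Cobl, an actin nucleator gene beside Grb10, fell by 1.13 ± 0.09 (adjusted p = 1.1e-07), opposite in direction to Grb10. Ddc, the dopa decarboxylase gene on the other side of Grb10, rose with it, by 0.49 ± 0.06 (adjusted p = 2e-05).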

How the data were processed

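Raw counts per gene were deposited by the authors as whole numbers for 8 poly(A)-selected MC3T3 libraries (200 ng RNA, 12 PCR cycles, per the labels' protocols), and a gene length per row. Per the submitters' processing notes, the authors used CASAVA, STAR, featureCounts and mm10. Versions and the annotation release are not given in the sources used here. Columns were matched to samples by title.

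All genes were fitted together with edgeR 4.0.16 (R 4.3.3): TMM factors, filterByExpr, robust quasi-likelihood F test, no covariate, Benjamini-Hochberg adjustment over 14991 genes at 0.05. The fit was tested on simulated data. Fold changes are LLC_CM minus NCM, and SE was taken from the F statistic (size of the fold change over its root). Alternatives were other scalings and filters, DESeq2 1.42.0, limma-voom (limma 3.58.1), a replicate block, an odd or even term, each library left out, an adjusted p of 0.01, and the classes without tissue-limited members.

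The members, allele classes and lists came from general knowledge and were chosen with earlier results of these data known. All members are accounted for. From other lists up to 3 genes with the smallest adjusted p at 1 CPM or more were eligible, or the most abundant where none passed, plus Igf2, Igf2r and Dio3. Rtl1, Ddc, Mir675, Mir335, Dnmt3b, Dnmt1, Uhrf1, Zfp57, Trim28, Map2, Runx2 and Col1a1 were named after their values were seen. So were Fcer1g, Cd68, Csf1r, Ptprc and Adgre1. Exon overlaps are from GENCODE M21. Whether a replicate was its own culture is not in the labels. The p-values therefore measure only how far these libraries spread, which may be technical.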

Additional observations from a re-analysis of the deposited data

Results flagged for a closer look

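In 70 groups of 4 libraries examined for a library far from the other 3, 6 held one, where chance gives about 1 in 20 groups. NCM replicate 1 had 0.955 CPM of Mkrn3, against 0.637 to 0.671 CPM in the other NCM libraries. LLC_CM replicate 2 had 19.6 CPM of Trappc9, against 26.7 to 28.0 CPM, and 12.5 CPM of Alpl, against 14.1 to 14.2 CPM. LLC_CM replicate 4 had 189 CPM of Igf2, against 99.1 to 113 CPM. NCM replicate 4 had 36.0 CPM of Tet1, against 39.9 to 40.6 CPM, and NCM replicate 2 had 38.5 CPM of Arid4a, against 34.1 to 34.5 CPM.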

How the results depend on the processing

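All 6 called members (Mest, Impact, Sgce, Grb10, Airn and Sfmbt2) kept their direction and call under all 18 alternatives. Over the 17 tested members 291 of 305 alternative values kept direction and call, 12 newly passed and 2 changed sign. DESeq2 called 5 members lower in place of 2, of which 4 are paternally and 1 maternally expressed, and limma-voom called 1 maternally expressed member lower in place of 0. Leaving out 1 library at a time gave 4 to 5 members higher and 2 to 4 lower. By allele this was 3 paternally expressed members higher throughout and 2 to 3 lower, and 1 to 2 maternally expressed members higher and 0 to 1 lower. Without tissue-limited members 1 paternally expressed gene was lower. With 1 library left out the log2 fold change of Nap1l4 ran from -0.0060 (without NCM replicate 3) to 0.040, of Mkrn3 from -0.0077 (without LLC_CM replicate 3) to 0.49 and of Igf2 from -0.030 (without LLC_CM replicate 4) to 0.38, none of them called. The cause of these changes was not tested. With the replicate number as a block 4 members were higher and 2 became 3 lower, Gab1 being added. H19 had an adjusted p of 0.088 in edgeR with that block, against 0.55 without it. Same-numbered libraries had correlations of deviations between -0.04 and 0.20, and 3 of 8 samples correlated best with their own number. These values cannot decide whether same-numbered libraries were handled together, and the labels state no block or batch.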
